A study of Mus musculus with 19 samples.

Results

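Genes that mark the endothelial cells of the liver sinusoids were followed across diet and microplastic exposure in bulk liver RNA sequencing. The rows of the gene-level count table with the symbols Stab1, Stab2, Lyve1, Clec4g, Fcgr2b, Oit3, Mrc1, Gpr182, Pecam1 and Kdr were taken, which are 10 of the 55836 genes listed. All 10 were among the 13597 genes with enough counts to test. The study asked how orally given polyethylene (PE) microplastic acts on the liver of mice on a control diet (CD) or on a diet that leads to steatohepatitis (MD). Livers of 19 mice were sequenced, 4 in CD + Veh and 5 each in MD + Veh, CD + PE and MD + PE, where Veh is the vehicle. All animals were wild-type C57BL/6 males, 8 weeks old at the start, kept for 8 weeks on CD with 10 kcal% fat or on MD, which is richer in fat (40 kcal%), fructose (20 kcal%) and cholesterol (2%). All were gavaged with 0.1% Tween 20 in water, which in the PE groups carried 2 mg of PE particles of 10 to 150 µm per mouse and day. The whole liver was sequenced, so a lower level can mean fewer cells of a type or less RNA per cell, and these cannot be told apart.

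Sinusoidal endothelial cells line the capillaries of the liver lobule. They have open pores without a diaphragm and little basement membrane, and they clear waste macromolecules from blood through scavenger receptors. In chronic liver injury they can lose the pores and gain features of ordinary capillaries, and vascular endothelial growth factor (VEGF) made by neighbouring cells is known to help maintain them. The members fall into scavenger and endocytic receptors (Stab1, Stab2, Lyve1, Mrc1, Fcgr2b), a lectin and a zona pellucida domain protein enriched in these cells (Clec4g, Oit3), an atypical chemokine receptor (Gpr182), and genes of endothelium in general (Pecam1, Kdr).

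Members that vary together across libraries, as these did, are shown here with the 250 bases before the annotated start of 4 of them, each 5′ to 3′ on the minus strand of GRCm38.p6 except Mrc1, which is on the plus strand. The sequences are from RefSeq, whose table held 6 of the 10 members (Stab1, Stab2, Clec4g, Fcgr2b, Mrc1, Kdr) and no entry for Lyve1, Oit3, Gpr182 and Pecam1. The windows are chr10:87007943-87008192, chr8:3720652-3720901, chr2:14229164-14229413 and chr1:170976072-170976321. Capitals mark the letters AGGAAG or CGGAAG, or their reverse complements, a core read by ETS factors, several of which act in endothelium.
Stab2: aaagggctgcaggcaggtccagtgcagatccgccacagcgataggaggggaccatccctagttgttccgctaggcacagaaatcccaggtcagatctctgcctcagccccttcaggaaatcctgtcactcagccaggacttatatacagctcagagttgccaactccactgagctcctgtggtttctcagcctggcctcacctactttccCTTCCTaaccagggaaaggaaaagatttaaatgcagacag
Clec4g: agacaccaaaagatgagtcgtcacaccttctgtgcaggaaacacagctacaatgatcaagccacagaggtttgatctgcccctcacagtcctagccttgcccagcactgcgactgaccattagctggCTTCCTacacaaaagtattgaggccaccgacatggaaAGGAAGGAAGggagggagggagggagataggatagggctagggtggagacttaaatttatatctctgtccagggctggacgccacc
Mrc1: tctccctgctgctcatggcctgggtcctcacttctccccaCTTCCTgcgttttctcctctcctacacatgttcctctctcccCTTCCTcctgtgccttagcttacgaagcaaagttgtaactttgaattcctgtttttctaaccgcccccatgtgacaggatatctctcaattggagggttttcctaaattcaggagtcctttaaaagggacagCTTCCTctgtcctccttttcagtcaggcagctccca
Fcgr2b: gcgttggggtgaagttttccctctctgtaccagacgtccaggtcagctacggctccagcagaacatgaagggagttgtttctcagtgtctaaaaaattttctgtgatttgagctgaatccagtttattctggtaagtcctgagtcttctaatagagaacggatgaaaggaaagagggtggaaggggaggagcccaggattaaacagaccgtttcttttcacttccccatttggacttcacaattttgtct
At least 1 of these 2 motifs stood in 4 of the 6 member promoters (Stab1, Stab2, Clec4g, Mrc1) and in 39.2% of 32851 promoters of the same table searched on both strands. AGATAA or TGATAA, letters read by GATA factors, stood in 0 of the 6 and in 16.6% of all. Also searched were ACAAAG, read by SOX factors, in 0 of the 6 and 16.5% of all, and TGCTGA, read by MAF factors, in 1 of the 6 and 16.1% of all. These are counts of letters in a window and do not show a binding site.

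Levels are given as CPM, counts relative to library size, scaled by the trimmed mean of M-values (TMM), and between genes as CPM per kilobase of the canonical transcript. Fcgr2b, an inhibitory receptor for immune complexes, was the highest at 11.5 CPM per kb over the 19 libraries. Clec4g, a C-type lectin, followed at 9.29 and Oit3 at 6.88 CPM per kb. Mrc1, the mannose receptor, lay at 6.22, Kdr, the main VEGF receptor, at 5.65, Gpr182 at 5.36 and Stab1 at 5.08 CPM per kb. Stab2, which takes up hyaluronan, lay at 3.80, Pecam1, an adhesion molecule of endothelial junctions, at 3.35, and Lyve1, another hyaluronan receptor, at 2.05 CPM per kb. The order held in 18 of 19 libraries for Fcgr2b over Clec4g and for Clec4g over Oit3, but in only 9 of 19 for Kdr over Gpr182 and 13 of 19 for Mrc1 over Kdr, so those neighbours were not separated. A member drew between 57 counts (Lyve1) and 789 counts (Stab2) in a library. The biological coefficient of variation ran from 0.118 for Clec4g to 0.275 for Lyve1, around a median over all genes of 0.150.

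**Figure D1:**
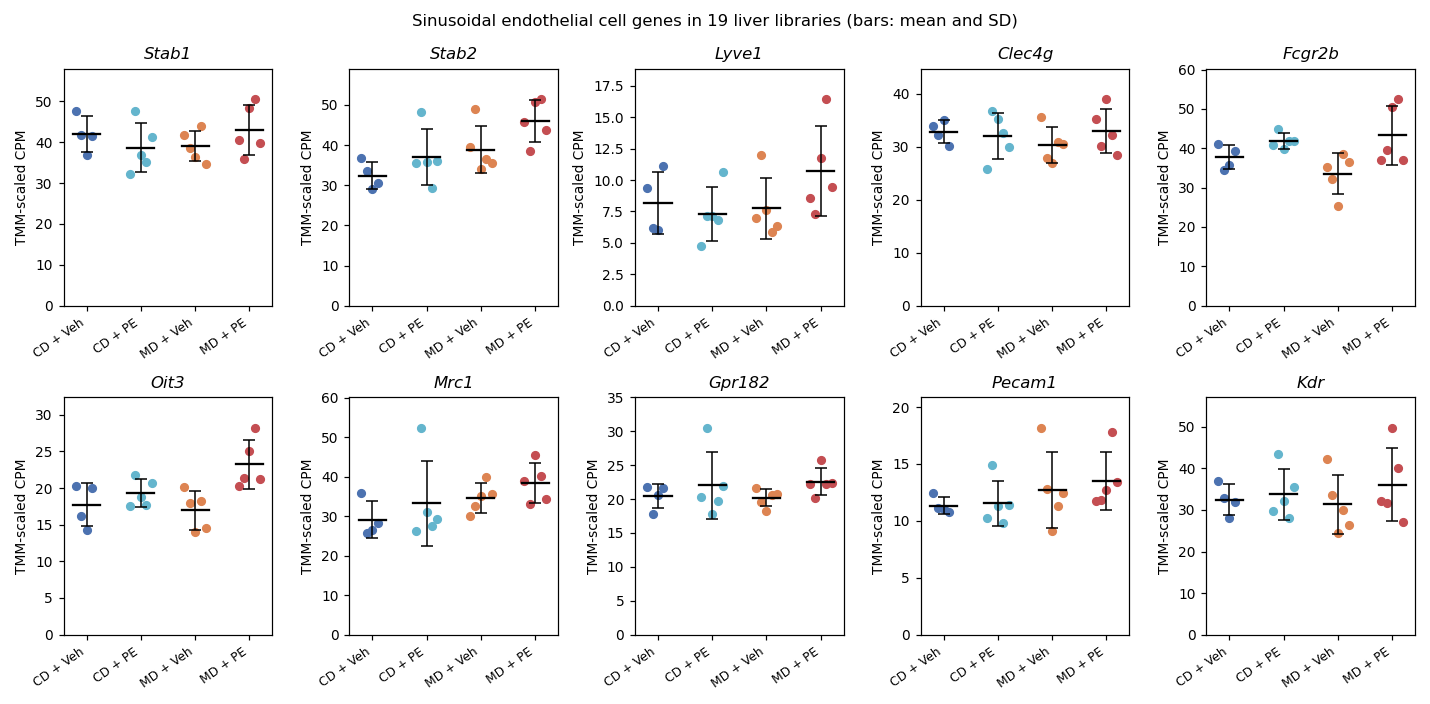
Level of each of the 10 genes in 19 liver libraries, in TMM-scaled CPM on a linear axis from 0, with 1 point per mouse and the group mean and SD as bars. The groups overlap in nearly every panel, and Oit3 in MD + PE lies above MD + Veh, at 20.3 to 28.2 against 14.0 to 20.2 CPM.

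No member passed the test with PE on the control diet. In CD + PE against CD + Veh 0 of 10 members were called by edgeR, the call asking for a log2 fold change of 0.38 or more in size and an adjusted p below 0.05. Of all genes tested 2.92% were called, and 17.5% of them and 0 members had an unadjusted p below 0.05. DESeq2 also called 0 members. Their log2 fold changes lay between -0.17 (Lyve1) and 0.19 (Mrc1), with a median of 0.08 beside 0.01 over all genes, and the smallest adjusted p was 0.497. The 95% interval of Clec4g, the narrowest, ran from -0.26 to 0.19, and that of Lyve1, the widest, from -0.74 to 0.40. Changes of a size within these bounds could have gone undetected at this depth and group size.

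One library decided the sign of several members in this comparison. CD + PE replicate 2 held Mrc1 at 52.3 CPM, where the other 4 libraries of its group lay between 26.3 and 31.1 CPM. It held Gpr182 at 30.4 against 17.7 to 21.9 CPM and Stab2 at 48.3 against 29.3 to 36.1 CPM. Markers of Kupffer cells, the resident macrophages of the sinusoid, which also carry Mrc1, summed to 724 CPM over 8 genes in this library and to 83.3 to 125 CPM in the others of its group. All 8 were detected in every library of the series, and their part in these levels was not tested. Red blood cell genes summed to 366 CPM in it and to 40.6 to 69.0 CPM in the others, and their part was not tested either. Without this library 3 of 10 members had a positive log2 fold change in place of 7, with a median of -0.05, and 0 were called. The members that changed sign were Mrc1, Gpr182, Pecam1 and Kdr, while Stab2 stayed positive.

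The group means of all 10 members were highest in MD + PE. In MD + PE against MD + Veh all 10 log2 fold changes were positive, with a median of 0.18 beside -0.01 over all genes, of which 47.8% were positive. None of the 10 was called by edgeR, while 1.08% of all genes were. At an unadjusted p below 0.05 stood 2 members, Oit3 and Fcgr2b, and 15.7% of all genes. The members share their variation between mice, so 10 of 10 is not 10 separate results. Nor was the direction particular to the members. Of 21 genes of endothelium of any vessel, 14 were positive in this comparison, with a median of 0.14. Their sum averaged 357 CPM in MD + PE and 313 CPM in MD + Veh, beside 310 and 266 CPM for the members.

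Oit3, a liver-enriched zona pellucida domain protein, differed most beside its error. It read 20.3, 21.4, 25.1, 28.2 and 21.2 CPM in MD + PE and 20.2, 18.0, 14.0, 18.2 and 14.5 CPM in MD + Veh. The groups did not overlap, by a margin of 20.3 to 20.2 CPM, which 1.08% of all genes did with MD + PE higher. The group means were 23.2 ± 3.31 and 17.0 ± 2.63 CPM (SD, n = 5 each). The log2 fold change was 0.45 (SE 0.122, 95% interval 0.20 to 0.71), with an adjusted p of 0.0657 by edgeR, so that it was not called. DESeq2, the tool of the study, gave 0.47 (SE 0.134) and an adjusted p of 0.0212, and called it, as it called 303 genes or 2.15% of those it tested. The study itself names Oit3, from its bulk RNA sequencing, among genes that responded to PE specifically on MD, so this call is not separate support. Over all fits the adjusted p of Oit3 in MD + PE against MD + Veh ran from 0.0212 (DESeq2) to 0.408 (edgeR without MD + PE replicates 3 and 4). In CD + PE Oit3 lay at 19.3 ± 1.87 and in CD + Veh at 17.7 ± 2.92 CPM (SD, n = 5 and 4), and these groups overlapped.

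Fcgr2b clears small immune complexes from blood in these cells. Its levels were 37.0, 39.7, 50.5, 52.4 and 37.1 CPM in MD + PE and 35.3, 32.1, 25.3, 38.6 and 36.4 CPM in MD + Veh. The groups overlapped, with replicates 3 and 4 of MD + PE highest and replicate 3 of MD + Veh lowest. The log2 fold change was 0.37 (SE 0.113, 95% interval 0.13 to 0.61), with an adjusted p of 0.103 by edgeR. DESeq2 gave 0.38 (SE 0.120) with an adjusted p of 0.0412 and called this gene too.

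The other 8 members gave log2 fold changes of 0.08 to 0.46 in MD + PE against MD + Veh. Lyve1 had the largest at 0.46 (95% interval -0.06 to 0.99, adjusted p = 0.398). It read 8.53, 7.33, 11.7, 16.4 and 9.43 CPM in MD + PE and 6.97, 12.0, 7.64, 5.88 and 6.33 CPM in MD + Veh, so that a single library in each group stood above the rest. Stab2 gave 0.24 (95% interval -0.01 to 0.50, adjusted p = 0.349). Pecam1 gave the smallest, 0.08 (95% interval -0.25 to 0.42).

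Much of this lay in replicates 3 and 4 of MD + PE. All 10 members lay above their own mean over the series in both, by 1.48 and 1.44 SD on average. Without both, an alternative chosen once the data were known, 7 of 10 members were positive in MD + PE against MD + Veh, with a median of 0.08, and 0 were called. In the same 2 libraries the Kupffer markers summed to 170 and 191 CPM, the lowest of their group, whose other libraries reached 316 CPM. Red blood cell genes went the other way, at 150 and 275 CPM against 86.7 to 102 CPM in the other 3 libraries of the group. Stellate cell markers were lowest in replicate 3, at 234 CPM, and highest in replicate 4, at 420 CPM. Hepatocyte markers were highest in replicate 3, at 64114 CPM, and lowest in replicate 4, at 48173 CPM. The part of these cells in the members' levels was not tested. The PE libraries held fewer counts than the vehicle libraries of their diet, 10398820 to 12757617 against 13406037 to 15456729 in all, and the part of depth was not tested. The library numbers of the column names put all PE libraries after all vehicle libraries. The labels do not say what these numbers stand for, and anything that follows them cannot be told apart from PE.

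**Figure D2:**
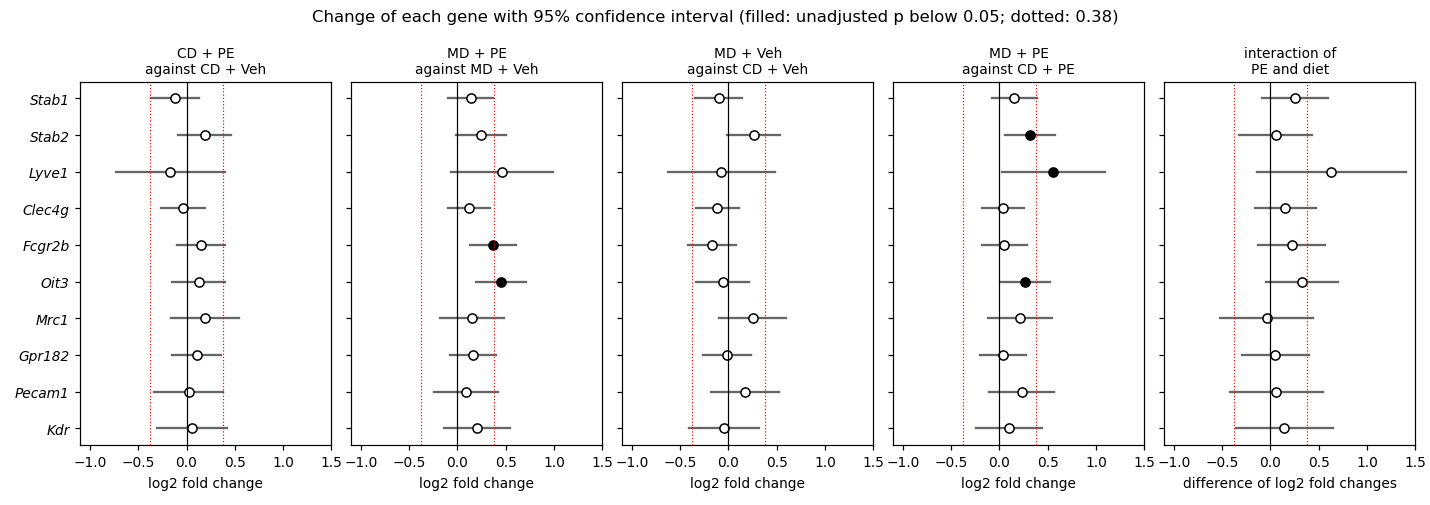
Log2 fold change of each gene (points) with its 95% confidence interval (lines) in 4 comparisons, and the difference of the PE effects between diets in the panel at the right, from edgeR. Filled points have an unadjusted p below 0.05 and dotted lines mark 0.38 on the log2 scale. No member passed the adjusted threshold, and all 10 points lie right of 0 in both comparisons that have MD + PE first.

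No member passed the test for the diet alone. In MD + Veh against CD + Veh 0 of 10 were called, where 10.4% of all genes were, and 0 members against 28.6% of genes had an unadjusted p below 0.05. DESeq2 also called 0. Stab2 had the largest value, 0.26 (SE 0.131, 95% interval -0.01 to 0.54, adjusted p = 0.192), with 38.9 ± 5.95 CPM in MD + Veh (n = 5) and 32.4 ± 3.45 CPM in CD + Veh (n = 4). Fcgr2b had the lowest, -0.17 (95% interval -0.42 to 0.08). The summed Kupffer markers ran from 215 to 314 CPM in MD + Veh and from 98.8 to 181 CPM in CD + Veh. Of these markers 8 of 8 were positive, with a median log2 fold change of 0.76, and 0 were called. The fit took its spread from all 19 libraries, among them CD + PE replicate 2, where these markers summed to 724 CPM. The absence of calls thus does not show equal Kupffer levels.

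Between the diets under PE, 0 of 10 members were called and 4.61% of all genes were. All 10 log2 fold changes of MD + PE against CD + PE were positive, with a median of 0.18, and 3 had an unadjusted p below 0.05 (21.7% of all genes). This comparison and the preceding PE comparison share the MD + PE libraries. Stab2 read 45.8, 38.7, 50.9, 51.4 and 43.6 CPM in MD + PE and 35.6, 48.3, 35.7, 29.3 and 36.1 CPM in CD + PE. Only CD + PE replicate 2 reached into the MD + PE range. The log2 fold change of Stab2 was 0.32 (SE 0.123, 95% interval 0.06 to 0.57, adjusted p = 0.134). Without CD + PE replicate 2 it was 0.43 (SE 0.113, adjusted p = 0.0202) and Mrc1 was 0.43 (SE 0.113, adjusted p = 0.0197), and both were then called by edgeR, as were 987 genes or 7.25% of those tested in that fit. Lyve1 stood at 0.56 (95% interval 0.02 to 1.09, adjusted p = 0.210) and Oit3 at 0.27 (95% interval 0.01 to 0.53, adjusted p = 0.210).

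A difference of the PE effect between the diets was not detected. The interaction was called for 0 of 10 members, and for 0.00735% of all genes, and 0 members and 8.77% of genes had an unadjusted p below 0.05. DESeq2 also called 0 members. Lyve1 had the largest difference, 0.63 on the log2 scale (95% interval -0.14 to 1.40), followed by Oit3 at 0.33 (95% interval -0.05 to 0.70), and the smallest adjusted p was 0.636.

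The members varied together from mouse to mouse. Pearson's r of log2 CPM was positive for 45 of 45 pairs over the 19 libraries, from 0.09 to 0.78 with a median of 0.56. After the group means were taken out the median was 0.55, so the members also varied together within groups. It is a description over libraries that share tissue sampling and scaling. Kdr, Oit3 and Stab1 followed the mean of the other 9 members most closely, with r of 0.84, 0.84 and 0.82, and Clec4g least, with 0.50. The lowest library on average was MD + Veh replicate 3, with 1 of 10 members above its mean. CD + Veh replicate 3 and CD + PE replicate 1 also had 1 of 10 above, and CD + Veh replicate 1 had 9.

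**Figure D3:**
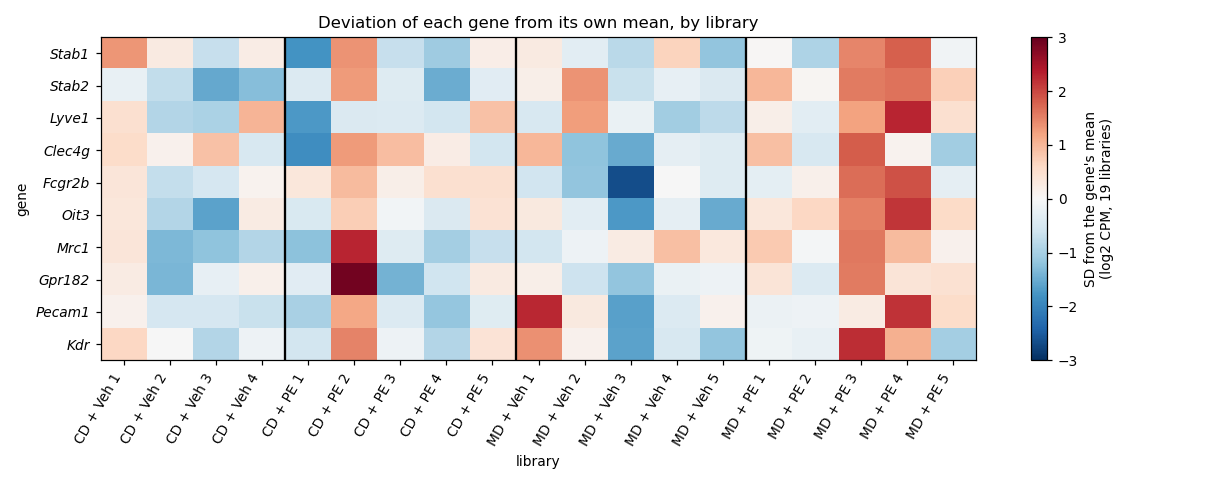
Deviation of each gene from its own mean over 19 libraries, in SD of log2 CPM, with 1 column per mouse and vertical lines between the groups (red above, blue below the mean). The columns CD + Veh 1, CD + PE 2, MD + PE 3 and MD + PE 4 are red in 9, 9, 10 and 10 of 10 genes. In CD + Veh 3, CD + PE 1 and MD + Veh 3 only 1 of 10 genes is red.

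The genes outside the list that most resembled the members' mean were F8 (r = 0.84), which encodes coagulation factor VIII, a product of liver endothelium, Mylip (0.82), Lrrc8c (0.80), Btnl9 (0.80) and Ptprb (0.78), the endothelial receptor phosphatase of TIE2. Over 13587 other genes the median r was -0.01, and 3.42% were above 0.5. Ptprb read 62.2, 63.0, 85.3, 73.5 and 63.8 CPM in MD + PE and 48.1, 57.9, 51.3, 53.9 and 53.2 CPM in CD + PE. These groups did not overlap, as for 2.21% of all genes with MD + PE higher, and Ptprb was called higher in MD + PE, at 0.40 on the log2 scale (SE 0.111, adjusted p = 0.0368). The call was kept in 20 of 29 alternative fits and lost in 9. Mylip, a ubiquitin ligase for the LDL receptor, was called in the same comparison at 0.70 (SE 0.164, adjusted p = 0.0138), in 28 of 29 alternative fits. All of these genes were picked by their r over the same libraries, and the members' mean was highest in MD + PE replicates 3 and 4. A higher level in MD + PE is thus partly built into the choice, and these calls are not separate support.

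Members were also set against the mean of 21 genes of endothelium of any vessel, a scale chosen once the data were known. Of 40 exact permutation tests, the smallest p was that of Oit3 in MD + PE against MD + Veh. The difference there was 0.31 on the log2 scale (exact two-sided p = 0.0159, adjusted p = 0.635, smallest possible p 0.00794). Leaving out each of the 10 libraries in turn gave 0.26 to 0.36. With 40 tests a single gene at the smallest possible p cannot pass the correction, so the adjusted value carries no information either way. Oit3 had already differed most beside its error in MD + PE against MD + Veh, so its unadjusted p here is not separate support. On this scale the differences in the same comparison were 0.30 for Lyve1, 0.22 for Fcgr2b and 0.10 for Stab2. The remaining members lay between -0.04 (Pecam1) and 0.05 (Kdr).

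Other endothelial genes were mostly not called. Of 15 further sinusoidal genes 0 were called in any of the 5 comparisons, with 13 of 15 positive and a median of 0.26 in MD + PE against MD + Veh. Among the uncalled were Dnase1l3, a secreted nuclease, at 42.1 ± 5.89 and 35.1 ± 2.38 CPM (SD, n = 5 each), and Aqp1, a water channel, at 45.8 and 39.7 CPM on average. Of 21 genes of endothelium of any vessel, Ptprb was the only one called, in 1 of 5 comparisons. Of 9 tested genes of continuous capillary or activated endothelium 0 were called, with 8 of 9 positive and a median of 0.40 in MD + Veh against CD + Veh, where 49.4% of all genes were positive. Their sum was 90.4 to 98.6 CPM in MD + Veh replicates 1 to 3, where skeletal muscle genes summed to 103 to 2199 CPM, and 71.0 and 79.6 CPM in replicates 4 and 5, where muscle genes summed to 12.1 and 1.39 CPM. CD + Veh lay at 56.6 to 70.3 CPM. In MD + PE against CD + PE 7 of 9 were positive, with a median of 0.28. Their sum was 62.2 to 106 CPM in MD + PE, where muscle genes summed to 0.36 to 1.63 CPM, and 57.4 to 83.8 CPM in CD + PE. The part of muscle, which has continuous capillaries, was not tested. Plvap, which forms the diaphragms of ordinary fenestrated capillaries, had an adjusted p of 0.0371 in MD + Veh against CD + Veh at a log2 fold change of 0.35, under the fold limit.

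The ligands Vegfa and Vegfb were lower on MD, while no difference was detected in the receptor Kdr. Of 7 tested genes 3 were called lower in MD + Veh against CD + Veh and 2 in MD + PE against CD + PE, where 5.63% and 2.92% of all genes were called lower, and 0 were called with PE on either diet. Vegfa, the main ligand of Kdr, read 182, 215, 193 and 186 CPM in CD + Veh and 114, 109, 105, 118 and 139 CPM in MD + Veh. The groups were far apart, the log2 fold change being -0.73 (SE 0.092, adjusted p = 2.95e-05). Under PE Vegfa fell from 152 ± 10.2 CPM in CD + PE to 102 ± 12.3 CPM in MD + PE (SD, n = 5 each), or by -0.57 on the log2 scale (SE 0.087, adjusted p = 0.000404). Both calls were kept in all 29 alternative fits. The 5 hepatocyte markers, of which 2 were called lower and 1 higher with vehicle and 3 lower with PE, summed to 47893 to 62259 CPM in MD + Veh against 68193 to 84962 CPM in CD + Veh, and to 48173 to 64114 CPM in MD + PE against 62322 to 90353 CPM in CD + PE. Their part in the Vegfa level was not tested. On CD, PE gave a Vegfa log2 fold change of -0.36 (SE 0.092, adjusted p = 0.0359), which was under the fold limit and not called. Vegfa read 136 to 160 CPM in CD + PE.

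Vegfb, a ligand of Flt1, was called lower on MD with vehicle, at -0.86 (SE 0.228, adjusted p = 0.0159), and with PE, at -0.91 (SE 0.226, adjusted p = 0.0186), with overlapping groups in both and the call kept in 27 of 29 alternative fits each. Nrp2, a co-receptor, was called lower in MD + Veh at -0.72 (SE 0.23, adjusted p = 0.0431), with overlapping groups, and lost the call in 15 of 29. Kdr itself read 32.4 ± 3.70 CPM in CD + Veh and 31.4 ± 7.08 CPM in MD + Veh, and 33.7 ± 6.09 CPM in CD + PE and 36.1 ± 8.86 CPM in MD + PE. Its log2 fold change between the diets was -0.05 (95% interval -0.41 to 0.32) with vehicle and 0.10 (95% interval -0.25 to 0.45) with PE. Flt1 gave 0.05 and 0.24, and was not called.

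**Figure D4:**
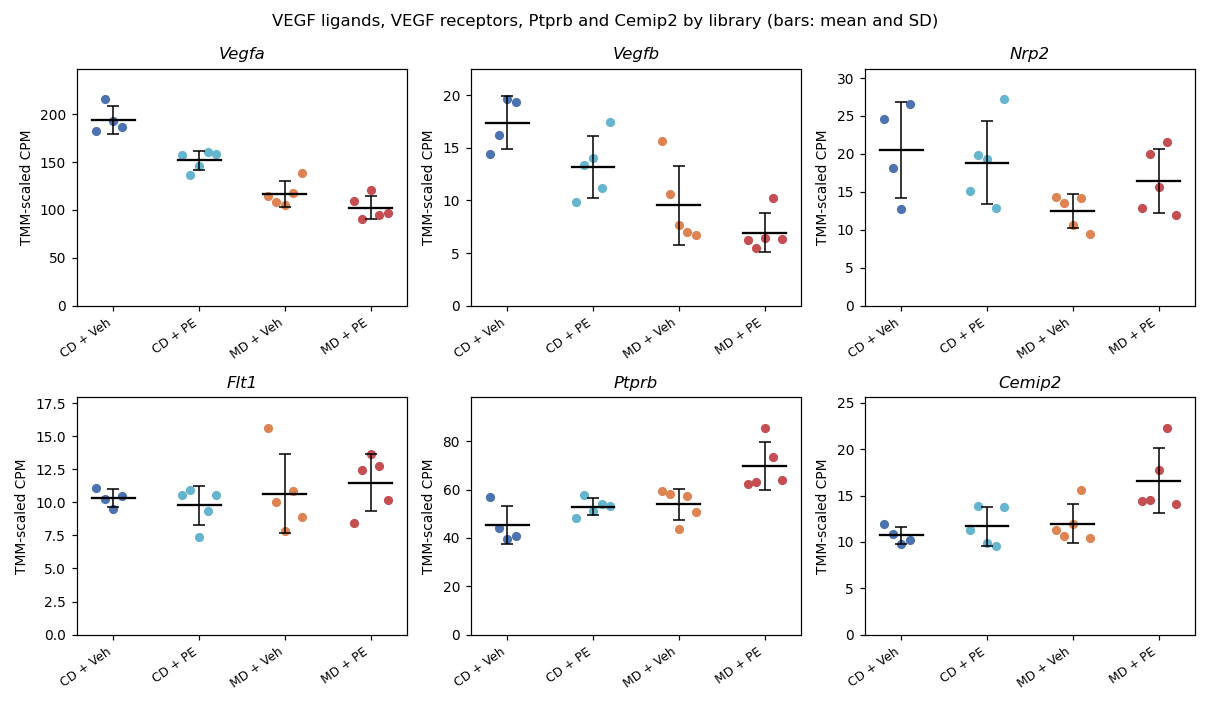
Level of VEGF ligands and receptors, Ptprb and Cemip2 in 19 liver libraries, in TMM-scaled CPM on linear axes from 0, with 1 point per mouse and bars for the mean and SD. Vegfa lies at 182 to 215 CPM in CD + Veh and at or below 139 CPM in both MD groups.

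Of the hyaluronan genes, 4 of 9 could be tested, since the synthases Has1, Has2 and Has3 and Cemip reached at most 5 counts and Hmmr at most 22 counts in a library. Cemip2, a hyaluronidase of the cell surface, read 14.4, 14.6, 17.7, 22.2 and 14.1 CPM in MD + PE and 11.3, 13.9, 9.89, 9.54 and 13.7 CPM in CD + PE. The groups did not overlap, and the log2 fold change of 0.51 (SE 0.146, adjusted p = 0.0385) was called but lost the call in 9 of 29 alternative fits. Of the 2 receptors for hyaluronan among the members, Stab2 and Lyve1, neither was called in any comparison.

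**Figure D5:**
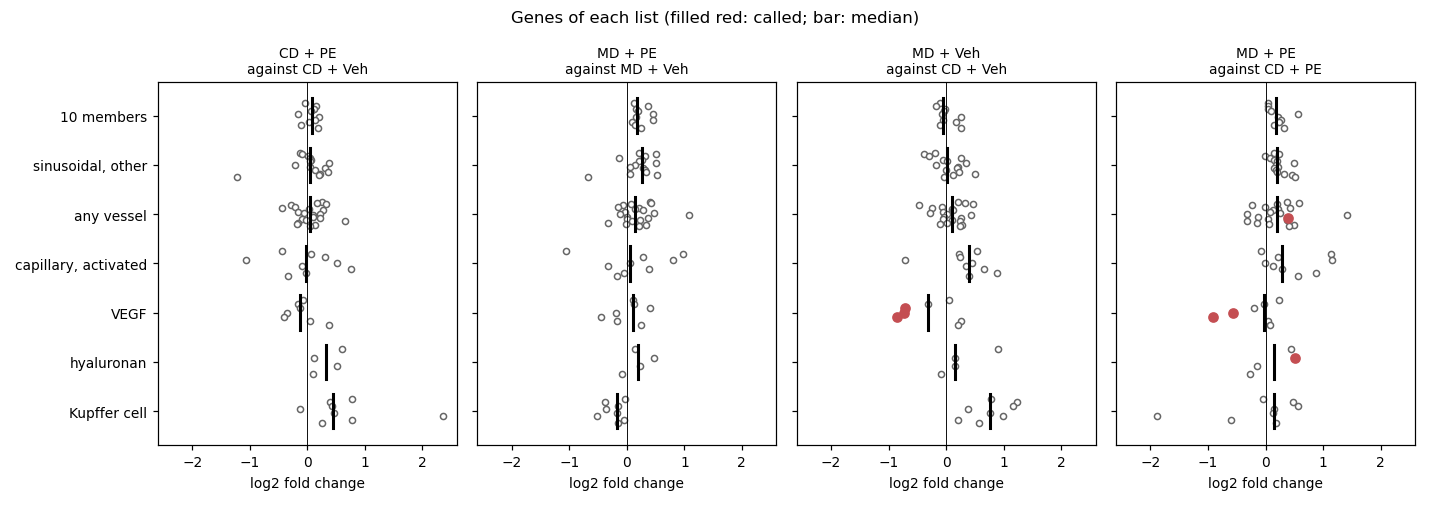
Log2 fold change of each tested gene (points) of 7 lists in 4 comparisons, with called genes filled in red and the list median as a bar. Red points are Vegfa, Vegfb and Nrp2 in MD + Veh against CD + Veh, and Vegfa, Vegfb, Ptprb and Cemip2 in MD + PE against CD + PE.

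Markers of other cells that could carry these genes were read beside them. The lymphatic genes Ccl21a, Mmrn1 and Pdpn, relevant to Lyve1, reached at most 8.49, 4.31 and 1.84 CPM, and Pdpn was at 0 counts in at least 1 library. Kupffer markers summed to 170 to 316 CPM in MD + PE and to 215 to 314 CPM in MD + Veh, with 0 of 8 positive and 0 called. Skeletal muscle genes summed to 2199, 141 and 103 CPM in MD + Veh replicates 1 to 3, to 311 CPM in CD + PE replicate 1, and to at most 26.2 CPM in the other libraries, with 0.36 to 1.63 CPM in MD + PE. MD + Veh replicate 1 was also the highest of its group in Pecam1, at 18.1 CPM, and in Kdr, at 42.3 CPM, and the part of muscle in these values was not tested.

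The members lie on 8 chromosomes of GRCm39 in the GENCODE annotation, all as protein-coding genes. Stab1 is at chr14:30860970-30890598, Stab2 at chr10:86675054-86843889, Lyve1 at chr7:110448585-110462460, Clec4g at chr8:3757064-3770671 and Fcgr2b at chr1:170786186-170804177. Oit3 is at chr10:59258780-59277702, Mrc1 at chr2:14234151-14336926, Gpr182 at chr10:127580924-127587635, Pecam1 at chr11:106543689-106641454 and Kdr at chr5:76093487-76139884. Mrc1 is on the plus strand and the others on the minus strand. Mir511 lies within Mrc1 on the same strand, and the other annotated overlaps, such as Pla2g12b with Oit3 and Nt5dc2 with Stab1, are on the opposite strand.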

How the data were processed

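Livers of 19 mice in 4 groups were sequenced as 150-base paired reads from poly(A) RNA with a stranded kit, and groups were taken from the sample labels. The authors trimmed reads with fastp 0.23.4, counted them per GENCODE transcript (GRCm39) with Salmon 1.10.3 and added these up by gene, and the deposited values are whole-number counts per gene with no normalization. The depth was 10398820 to 15456729 counts per library, and all columns were mapped to samples. Counts were fitted in R 4.3.3 with edgeR 4.0.16 (TMM, filterByExpr by group, quasi-likelihood F test, all 19 libraries, 1 coefficient per group), adjusted by Benjamini-Hochberg over 13597 genes. The fold and adjusted p limits, 0.38 and 0.05, are those of the study. SE is the log2 fold change divided by the square root of F. DESeq2 1.42.0 was an alternative, and log2 CPM used a prior count of 2. The p-values measure the spread between mice. The paper states that mice were housed together in groups. If cages followed the treatment groups, a cage effect is not in this spread and cannot be told apart from the treatment. The scripts were tested on simulated data. No pair of libraries in a group was a copy. Over 27 pairs of libraries with the same replicate number the median correlation of residuals was 0.03, and 6 exceeded 0.1, so the mice were treated as unpaired. The members and lists were chosen with earlier results of these data known. All members are named, and of the other lists the called genes (at most 6 per list), at most 2 uncalled genes of highest level and the 5 genes most like the members. Plvap, Flt1 and genes of other cell types were named after their values were seen. Some marker genes are not reported here, and other assays of the study were not analysed here.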

Additional observations from a re-analysis of the deposited data

Results flagged for a closer look

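Of 40 sets of a member's values in 1 group, 3 held a library farther from the rest than Dixon's 95% limit, where chance alone marks about 1 in 20. Lyve1 was at 12.0 CPM in MD + Veh replicate 2, above the other 4 libraries of the group at 5.88 to 7.64 CPM. Mrc1 was at 52.3 CPM in CD + PE replicate 2, above 26.3 to 31.1 CPM. Pecam1 was at 17.9 CPM in MD + PE replicate 4, above 11.8 to 13.4 CPM.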

How the results depend on the processing

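Of 540 log2 fold changes of members in 11 other settings, 517 kept their direction and side of the threshold, 2 became called and 21 changed sign. The setting with no minimum fold, among these, could not change a sign. Of 950 with 1 library left out, 908 kept both, 2 became called and 40 changed sign. In the comparisons of 2 groups, part of these fits left out a library of neither group, which moves a fold change little. No value that changed sign was called, and the causes were not tested. The called members were 2 by DESeq2 in MD + PE against MD + Veh and 0 to 2 with 1 library left out in MD + PE against CD + PE. Sign changes with library totals in place of TMM were Pecam1 -0.015 in CD + PE against CD + Veh, and Mrc1 0.043 in the interaction of PE and diet. With a covariate that separates library numbers up to 45 from those of 46 and over they were Lyve1 0.37, Fcgr2b -0.13 and Mrc1 -0.021 in CD + PE against CD + Veh, Lyve1 0.11 and Kdr 0.046 in MD + Veh against CD + Veh, and Stab2 -0.016, Mrc1 0.048 and Pecam1 -0.0021 in the interaction of PE and diet. Without MD + PE replicates 3 and 4, added after the data were seen, they were Stab1 -0.0023, Pecam1 -0.038 and Kdr -0.040 in MD + PE against MD + Veh, Clec4g -0.026, Fcgr2b -0.13, Gpr182 -0.018 and Kdr -0.14 in MD + PE against CD + PE, and Stab2 -0.059, Gpr182 -0.011, Pecam1 -0.074 and Kdr -0.11 in the interaction of PE and diet. With 1 library left out, members that changed sign ranged over Clec4g -0.088 to 0.047, Gpr182 -0.039 to 0.18, Kdr -0.052 to 0.14, Lyve1 -0.34 to 0.028, Mrc1 -0.030 to 0.32 and Pecam1 -0.088 to 0.087 in CD + PE against CD + Veh, Pecam1 -0.029 to 0.26 in MD + PE against MD + Veh, Gpr182 -0.080 to 0.024, Kdr -0.16 to 0.033, Lyve1 -0.28 to 0.12 and Oit3 -0.15 to 0.020 in MD + Veh against CD + Veh, Clec4g -0.029 to 0.094, Fcgr2b -0.018 to 0.10, Gpr182 -0.035 to 0.18 and Kdr -0.042 to 0.21 in MD + PE against CD + PE, and Gpr182 -0.016 to 0.20, Mrc1 -0.16 to 0.18, Pecam1 -0.066 to 0.22 and Stab2 -0.030 to 0.17 in the interaction of PE and diet. The replicate numbers of the labels did not pair the mice, and with them as a replicate block 0 members were called in every comparison, with a smallest adjusted p of 0.0797 in MD + PE against MD + Veh. With 1 library left out, the smallest adjusted p of a member there ran from 0.0582 (MD + PE replicate 1) to 0.168 (MD + Veh replicate 3) by edgeR. It was 0.115 with only the groups compared, 0.339 with the covariate and 0.408 without MD + PE replicates 3 and 4. The covariate of library numbers splits only MD + Veh, replicates 1 to 3 against 4 and 5, so it is estimated from that group alone. Skeletal muscle genes summed to 103 to 2199 CPM in the former and to 12.1 and 1.39 CPM in the latter, and their part was not tested. Counts of all called genes moved over 1.5 times from 397 to 37 (covariate) in CD + PE against CD + Veh, from 147 to 303 (DESeq2), 33 (covariate), 73 (only the groups compared) and 26 (without MD + PE replicates 3 and 4) in MD + PE against MD + Veh, from 627 to 964 (no minimum fold) in MD + PE against CD + PE, and from 1 to 2 (library totals), 82 (DESeq2), 41 (replicate block), 54 (covariate) and 0 (without MD + PE replicates 3 and 4, edgeR) for the interaction. With 1 library left out these counts ran from 215 to 426, 56 to 243, 1019 to 1652, 505 to 987 and 0 to 3 over the 5 comparisons. No scaling moved the median of all genes by over 0.1. Depth limits Lyve1 most, at 57 to 239 counts per library.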
